A study of Homo sapiens with 15 samples.

Results

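The addition of osimertinib to 1,25(OH)2D3 was examined in 6 of the 15 RNA sequencing libraries of the series. These were the 3 libraries from H1975–OR cells given both 1,25(OH)2D3 and osimertinib (5a, 5b, and 5c) and the 3 from H1975–OR cells given 1,25(OH)2D3 alone (3a, 3b, and 3c), chosen by their labels, and libraries with the same letter were compared as pairs. H1975–OR is an osimertinib-resistant derivative of H1975, an EGFR-mutant line from a human lung adenocarcinoma, and is routinely cultured with 500 nM osimertinib. All 6 libraries therefore come from cells selected in the drug, and whether the plating medium contained it is not given in the sources used here. For RNA, the methods describe 96 h in charcoal-stripped serum with 500 nM osimertinib, 100 nM 1,25(OH)2D3, both, or vehicle, renewed at 0, 48, and 92 h. Their sequencing section names 3 separate passages but mentions only vehicle and 1,25(OH)2D3. H1975–OR cells given vehicle (2a, 2b, and 2c) or osimertinib alone (4a, 4b, and 4c) show the effect of the drug without 1,25(OH)2D3.

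Osimertinib is a covalent inhibitor of mutant EGFR, a receptor that signals through the MAPK cascade and through PI3K and AKT. MAPK signaling induces its own inhibitors, such as dual specificity phosphatases and Sprouty proteins, whereas AKT keeps FOXO transcription factors out of the nucleus. 1,25(OH)2D3 is the hormonally active form of vitamin D3 and acts through the vitamin D receptor, a ligand-activated transcription factor with CYP24A1 among its best known targets.

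Library 3a stood apart. Its mean correlation across genes with the other libraries of its group was 0.883, against 0.907 to 0.929 for the other 11 H1975–OR libraries, and it was closest to library 5a (0.913). Mitochondrially encoded mRNA took 1.54% of its counts and between 0.424% and 1.04% of the counts of the other 11. The paper leaves library 3a out, so results are also given without it. Library totals of the estimated counts lay between 4833034 and 6140120 for 1,25(OH)2D3 and between 4378030 and 4941496 for both agents. The keratins KRT7, KRT8, and KRT18 and the lung transcription factor NKX2-1 were present in all 6 libraries, with at least 171 counts of NKX2-1, whereas FOXA1, FOXA2, SFTPC, and SOX2 had 3 counts or fewer in each. The 12 markers of leukocytes, endothelium, muscle, fat, and liver summed to between 26.1 and 39.7 CPM (TMM-scaled counts relative to library size) with 1,25(OH)2D3 and to between 13.4 and 36.8 CPM with both agents, and CD3E had no count.

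With osimertinib added, 43 of the 12350 genes tested (0.348%) changed at an adjusted p under 0.05, by edgeR's quasi-likelihood test (Benjamini-Hochberg adjusted) with the replicate letter as a block. Of these, 33 (0.267%) were higher and 10 (0.081%) were lower with both agents. The largest rises were in DUSP15, MDK, GPNMB, ZNF185, and SLC44A2, and the largest falls in ANPEP, MTRNR2L11, MTRNR2L1, CSPG4, and IGFBP4. The log2 fold changes of the 43 genes reached 3.05 in size. The 43, chosen on these same values, had one sign in the 3 pairs, and in 38 the libraries of the groups did not overlap. Of all 12350 genes, 2018 were higher and 1969 lower in all 3 pairs, and 782 were higher and 785 lower without overlap. The counts given below for gene lists are read against these. CD70, HKDC1, MALL, and SLC16A6 were among those of the 43 whose libraries overlapped between the groups. At an unadjusted p under 0.05, 853 genes were higher and 882 lower. Without the block, 11 genes passed the threshold. Without library 3a, 197 of 12503 genes passed (1.58%), of which 108 (0.864%) were higher and 89 (0.712%) lower, and these included 41 of the 43, all but HKDC1 (adjusted p = 0.0524) and SLC16A9 (adjusted p = 0.0502). Without library 5b, 3c, 5c, or 3b, 6, 8, 8, and 12 genes passed. A fit of the 6 libraries alone called none by edgeR's quasi-likelihood test, with 1031 genes at an unadjusted p under 0.05 and the same sign for all 43, so the calls rest on a spread shared by the 12 H1975–OR libraries. With DESeq2, 406 genes passed and included all 43.

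**Figure D1:**
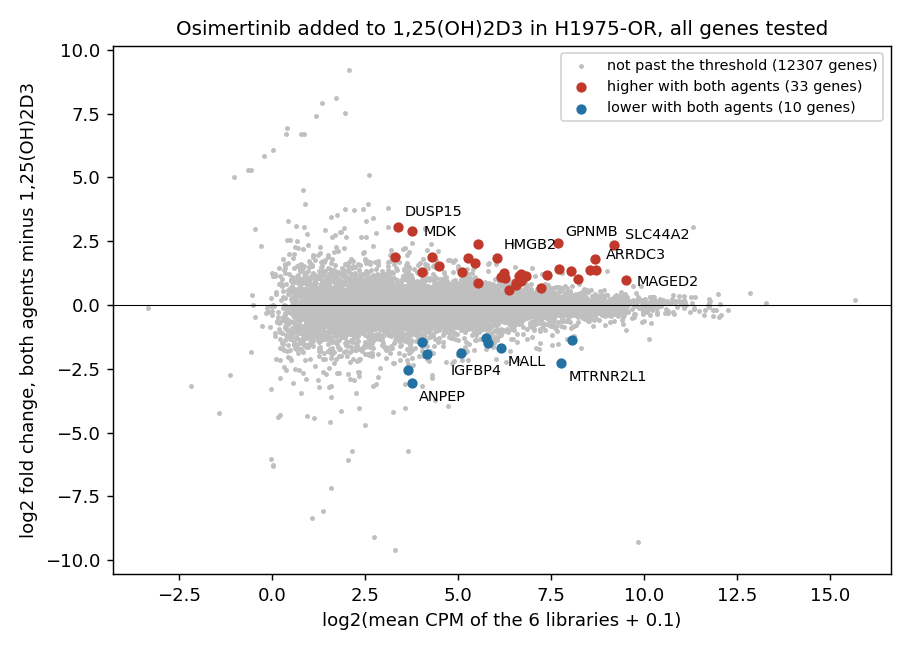
Log2 fold change (both agents minus 1,25(OH)2D3) of each of the 12350 genes tested against log2 of the mean CPM of the 6 libraries plus 0.1. The 33 genes that were higher (red) and the 10 that were lower (blue) at an adjusted p under 0.05 lie within 3.05 of 0, and genes with wider differences (gray) did not pass.

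GPNMB, a glycoprotein of lysosomal and melanosomal membranes, stood at 54.01, 66.7, and 70.2 CPM in libraries 3a to 3c and at 209, 387, and 451 CPM in libraries 5a to 5c. The groups did not overlap, and the log2 fold change was 2.42 ± 0.23 (SE, adjusted p = 0.00493). RRAGD encodes a Rag GTPase that recruits mTORC1 to lysosomes. It rose from 37.0, 17.7, and 12.9 CPM to 84.9, 70.1, and 41.9 CPM (1.63 ± 0.19, adjusted p = 0.00893), and the letter a library was the highest in each group. GPNMB and RRAGD are both known targets of the MITF and TFE transcription factors. Of the 29 tested genes of a lysosome and autophagy list, GPNMB alone passed the threshold, 11 were higher and 3 lower in all 3 pairs, and the median log2 fold change was 0.11, against −0.015 over all genes tested. Among the other members, picked out after their values were seen, the autophagy genes GABARAPL1 (0.75, adjusted p = 0.124) and ATG5 (0.67, adjusted p = 0.316) and the proton pump subunit ATP6V1H (0.67, adjusted p = 0.162) were higher in all 3 pairs without passing.

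Membrane transporters made up 5 of the 33 risen genes, a group singled out after its values were seen. SLC44A2, a choline transporter-like protein, was at 266, 171, and 140.0 CPM with 1,25(OH)2D3 and at 815, 990.3, and 1116 CPM with both agents (log2 fold change 2.35 ± 0.27, adjusted p = 0.00893). Each library with both agents lay above each with 1,25(OH)2D3 alone. SLC43A2, which carries large neutral amino acids, rose from 60.2, 60.3, and 63.0 CPM to 109, 124, and 182 CPM (1.15 ± 0.15, adjusted p = 0.0148). SLC5A3, a carrier of myo-inositol, rose from 130.1, 157, and 145 CPM to 215, 513, and 405 CPM (1.33 ± 0.22, adjusted p = 0.0469). Neither of these overlapped between the groups. The monocarboxylate transporter family members SLC16A9 (1.42, adjusted p = 0.0349) and SLC16A6 (1.86, adjusted p = 0.0429) completed the group. SLC16A6 had few counts and its libraries overlapped, at 8.03, 3.20, and 1.84 CPM against 23.9, 13.9, and 7.67 CPM, but each pair rose. Of 208 solute carriers tested, 5 passed the threshold, each of them higher, while 26 were higher and 44 lower in all 3 pairs and the median was −0.091. Without library 3a, 4 passed as lower, SLC16A1 (−0.55, adjusted p = 0.0420), SLC25A5 (−0.50, adjusted p = 0.0345), SLC35F2 (−0.45, adjusted p = 0.0499), and SLC39A14 (−0.47, adjusted p = 0.0386), named after their values were seen.

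ARRDC3 and CCNG2 also rose. ARRDC3, an arrestin-related adaptor for the trafficking and degradation of membrane receptors, went from 161, 187, and 194 CPM to 498, 727, and 677 CPM (log2 fold change 1.81 ± 0.18, adjusted p = 0.00522). CCNG2 encodes cyclin G2, an atypical cyclin linked to cell cycle arrest and a classic FOXO target. It was at 25.04, 17.04, and 9.03 CPM with 1,25(OH)2D3 and at 51.7, 81.5, and 46.7 CPM with both agents (1.83 ± 0.30, adjusted p = 0.0422). In both genes every library with both agents lay above every library given 1,25(OH)2D3 or vehicle. Among the 14 genes of a FOXO target and PI3K feedback list, CCNG2 alone passed the threshold, 6 were higher and 3 lower in all 3 pairs, and the median was 0.16. The next members by p were KLHL24, a ubiquitin ligase adaptor (0.60, adjusted p = 0.0836), CITED2, a transcriptional coregulator (−0.68, adjusted p = 0.0951), and TRIB2, a pseudokinase (−2.15, adjusted p = 0.113). CITED2 and TRIB2, both known FOXO targets, had estimates in the opposite direction to CCNG2. TRIB2 was at 9.13, 20.03, and 31.9 CPM with 1,25(OH)2D3 and at 2.98, 5.55, and 3.49 CPM with both agents.

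The start-site windows of these 4 FOXO list genes and of GPNMB, from 250 bases before to 50 after the start in RefSeq on GRCh38.p14, are shown because this list had the largest share of members past the threshold and GPNMB one of the smallest adjusted p. GPNMB was added after its values were seen. Capitals mark the motifs found on either strand, and all 4 matches appear as reverse complements. TGACTCA (AP-1) begins 203 bases before the start of KLHL24 and 134 bases before that of GPNMB. GTAAACA (forkhead) begins 249 bases before the start of TRIB2, and TCATGTGA (M-box, bound by MITF and TFE factors) 63 bases before that of GPNMB. The windows are chr4:77156957-77157256, plus strand, for CCNG2, chr3:183635373-183635672, plus strand, for KLHL24, chr6:139374599-139374898, minus strand, for CITED2, chr2:12716686-12716985, plus strand, for TRIB2, and chr7:23246525-23246824, plus strand, for GPNMB.
CCNG2: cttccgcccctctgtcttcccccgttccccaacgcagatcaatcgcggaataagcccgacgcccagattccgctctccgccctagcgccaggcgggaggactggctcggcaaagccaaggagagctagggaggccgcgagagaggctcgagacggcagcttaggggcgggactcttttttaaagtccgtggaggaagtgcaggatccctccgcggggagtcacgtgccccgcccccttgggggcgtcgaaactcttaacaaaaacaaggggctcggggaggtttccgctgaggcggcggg
KLHL24: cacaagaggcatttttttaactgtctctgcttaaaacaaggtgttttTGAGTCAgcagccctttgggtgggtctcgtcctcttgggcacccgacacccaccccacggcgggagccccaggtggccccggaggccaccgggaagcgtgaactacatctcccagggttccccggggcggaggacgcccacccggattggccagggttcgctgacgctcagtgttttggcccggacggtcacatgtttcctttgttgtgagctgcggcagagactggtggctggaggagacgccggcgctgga
CITED2: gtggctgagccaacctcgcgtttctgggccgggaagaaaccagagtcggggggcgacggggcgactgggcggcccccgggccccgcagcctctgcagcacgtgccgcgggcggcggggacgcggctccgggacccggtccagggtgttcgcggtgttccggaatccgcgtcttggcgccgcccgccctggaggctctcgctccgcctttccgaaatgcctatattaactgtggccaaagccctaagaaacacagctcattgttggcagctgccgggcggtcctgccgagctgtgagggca
TRIB2: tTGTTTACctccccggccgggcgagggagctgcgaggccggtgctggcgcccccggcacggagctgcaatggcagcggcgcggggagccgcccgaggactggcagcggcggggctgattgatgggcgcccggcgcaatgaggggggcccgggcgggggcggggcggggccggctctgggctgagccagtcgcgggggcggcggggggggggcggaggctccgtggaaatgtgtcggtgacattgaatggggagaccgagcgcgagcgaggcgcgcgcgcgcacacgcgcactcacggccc
GPNMB: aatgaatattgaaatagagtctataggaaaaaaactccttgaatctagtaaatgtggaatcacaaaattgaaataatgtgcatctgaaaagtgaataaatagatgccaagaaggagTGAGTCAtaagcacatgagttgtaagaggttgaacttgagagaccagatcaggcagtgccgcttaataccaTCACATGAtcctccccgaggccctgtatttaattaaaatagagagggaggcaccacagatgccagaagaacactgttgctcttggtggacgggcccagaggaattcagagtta

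Over all 27305 windows, TGACTCA was present in 4.92%, GTAAACA in 3.41%, and TCATGTGA in 1.01%. The other motifs searched were CCGGAAGT (ETS), TGACGTCA (cyclic AMP response element), TCACGTGA (an E-box of lysosomal genes), and the sterol elements GTGGGTGA and TCACCCCAC. They were present in 4.44%, 1.98%, 1.04%, 1.27%, and 0.425% of all windows and in none of the 5 shown. The 3 motifs GTAAACA, TCACGTGA, and TCATGTGA were added after the values were seen. Among the 9611 windows of tested genes, TGACTCA was present in 3%, GTAAACA in 2.28%, and TCATGTGA in 0.843%. The shares there were 9.21% for CCGGAAGT, 3.27% for TGACGTCA, 1.97% for TCACGTGA, 1.18% for GTGGGTGA, and 0.385% for TCACCCCAC. A window was found by symbol for 27 of the 43 genes past the threshold. Of these, GPNMB held TCATGTGA, GPNMB and SLC43A2 held TGACTCA, C5orf34 held CCGGAAGT, and none held any of the other motifs.

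HMGB2, a chromatin protein abundant in dividing cells, rose from 28.5, 35.2, and 22.5 CPM to 107, 89.3, and 111 CPM (log2 fold change 1.84 ± 0.25, adjusted p = 0.0191), with no overlap between the groups. Of 50 tested G2/M phase genes, HMGB2 alone passed the threshold. A total of 24 were higher and 1, the tubulin TUBB4B, was lower in all 3 pairs. At an unadjusted p under 0.05, 19 were higher and 0 lower, and the list median was 0.45, with 0.45 in pair a, 0.30 in pair b, and 0.70 in pair c. The condensin subunit SMC4 was at 32.4, 23.9, and 19.3 CPM against 63.4, 43.04, and 47.2 CPM (1.02, adjusted p = 0.0582). The mitotic kinase CDK1 was at 31.5, 27.5, and 20.5 CPM against 69.2, 39.3, and 44.9 CPM (0.92, adjusted p = 0.0768). SMC4 and CDK1, named after their values were seen, did not overlap between the groups but did not pass the threshold. Of 43 S phase genes none passed, 16 were higher and 0 lower in all 3 pairs, and the median was 0.26. Among them, the replication licensing inhibitor GMNN was at 20.2, 21.3, and 23.4 CPM against 30.02, 30.5, and 36.5 CPM (0.58, adjusted p = 0.120), without overlap. Of 12 G1 cyclins, kinases, and E2F genes none passed, with a median of 0.33. The kinases CDK2 (0.72, adjusted p = 0.113) and CDK6 (0.55, adjusted p = 0.0898) led them, and CDK6 passed without library 3a (0.67, adjusted p = 0.0313). In bulk libraries, a larger share of cycling cells and more RNA per cell cannot be told apart.

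XPO1, the main nuclear export receptor, rose from 203, 267, and 223 CPM to 507, 557, and 756 CPM (log2 fold change 1.38 ± 0.15, adjusted p = 0.00711). HSPA4L, a chaperone of the HSP110 family, rose from 46.3, 45.6, and 43.3 CPM to 111, 89.8, and 90.2 CPM (1.10 ± 0.11, adjusted p = 0.00522). SNAPC1, a subunit of the complex that starts small nuclear RNA transcription, rose from 102, 107, and 98.7 CPM to 206, 214, and 275 CPM (1.16 ± 0.16, adjusted p = 0.0218). The groups did not overlap in any of these, and the HSPA4L libraries varied least. MAGED2, a MAGE family protein, went from 407, 481, and 553 CPM to 619, 1071, and 1232 CPM (0.97 ± 0.13, adjusted p = 0.0191). ANKRD1, a nuclear ankyrin repeat protein and YAP target, rose from 175, 235, and 220.0 CPM to 470.2, 569, and 577 CPM (1.36 ± 0.11, adjusted p = 0.00493), again without overlap. It was the only one of 19 YAP and TEAD targets to pass, and their median was 0.14, with −0.23 in pair a, 0.49 in pair b, and 0.37 in pair c. ID2, an inhibitor of differentiation induced by BMP signaling, rose from 41.4, 60.5, and 43.9 CPM to 95.2, 139, and 75.1 CPM (1.06 ± 0.13, adjusted p = 0.0129). It was the only one of 18 TGF-β and BMP targets to pass (median 0.17). ANKRD1, ARRDC3, GPNMB, and HSPA4L passed the threshold under every alternative except the fit of the 6 libraries alone.

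Levels of some risen genes differed strongly between letters. MDK, the heparin-binding growth factor midkine, was at 9.13, 2.34, and 0.368 CPM with 1,25(OH)2D3 and at 39.6, 16.9, and 13.3 CPM with both agents (log2 fold change 2.90 ± 0.47, adjusted p = 0.0422). HKDC1, a hexokinase-like enzyme, was at 25.4, 5.54, and 3.32 CPM against 75.6, 12.03, and 12.1 CPM (1.52, adjusted p = 0.0370). In both genes the letter a library was the highest of each group, and for HKDC1 the groups overlapped although every pair rose. DUSP15, a dual specificity phosphatase, rose from 3.15, 2.98, and 0.921 CPM to 13.7, 16.9, and 24.2 CPM (3.05 ± 0.50, adjusted p = 0.0424). ZNF185, a LIM domain protein of the actin cytoskeleton, rose from 24.9, 14.1, and 7.92 CPM to 79.1, 65.95, and 84.2 CPM (2.37 ± 0.31, adjusted p = 0.0162). Other risen genes, apart from zinc finger genes, were the ephrin ligand EFNA1 (1.30), C5orf34 (1.29), the TNF family ligand CD70 (0.87), the glycerophosphocholine phosphodiesterase GPCPD1 (0.85), the actin regulator CFL2 (0.79), and the peptidase-like PREPL (0.67). Their adjusted p ranged from 0.0267 for C5orf34 to 0.0414 for PREPL.

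**Figure D2:**
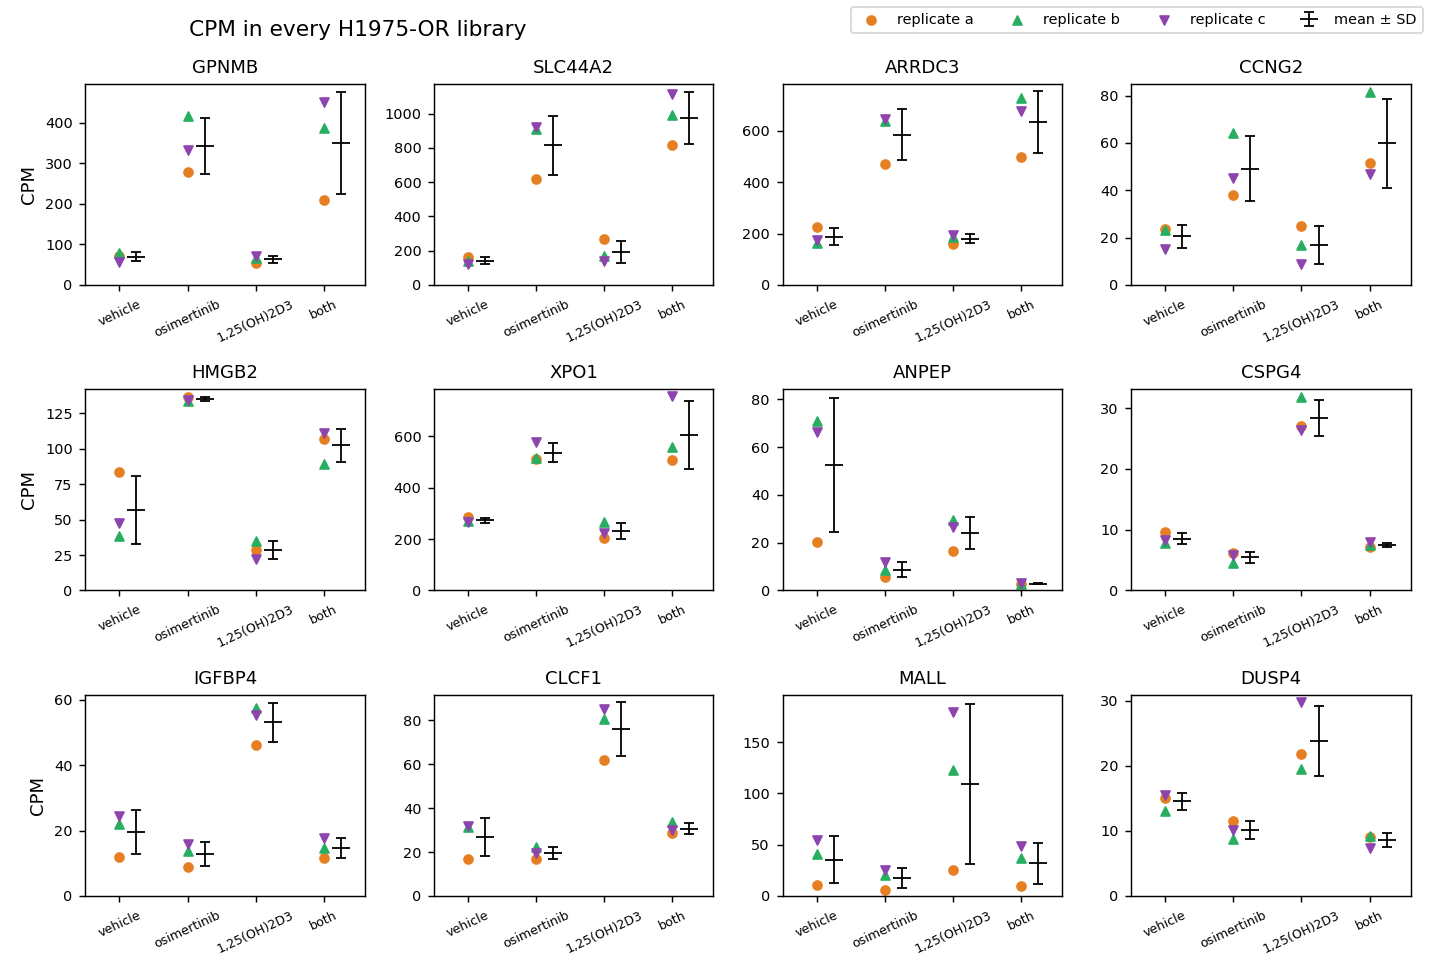
CPM of 12 genes in each of the 12 H1975–OR libraries (colored symbols by replicate letter), with the mean and SD of each group of 3 (black bars). GPNMB, SLC44A2, ARRDC3, CCNG2, HMGB2, and XPO1 were higher in each library with both agents than in any with 1,25(OH)2D3 alone, ANPEP, CSPG4, IGFBP4, CLCF1, and DUSP4 were lower, and the MALL libraries overlapped.

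A run of 5 zinc finger genes on chromosome 19, between 11559374 and 12114753 on GRCh38, rose, which was noticed after their values were seen. In order along the chromosome they were ZNF627 (0.95), ZNF441 (1.24), ZNF763 (1.87), ZNF844 (1.22), and ZNF788 (1.12), all log2 fold changes. ZNF763 was at 9.61, 9.59, and 6.08 CPM with 1,25(OH)2D3 and at 25.3, 33.6, and 32.8 CPM with both agents (adjusted p = 0.0191). ZNF844 was at 60.2, 65.2, and 58.6 CPM against 107, 162, and 167 CPM (adjusted p = 0.0180). The groups did not overlap in either gene. The bounds of this stretch of 0.555 Mb are those of the outermost risen genes, a choice that raises its count and median. It holds 13 tested ZNF genes, of which 5 passed the threshold, 8 were higher and 0 lower in all 3 pairs, and the median was 0.95. The 8 that did not pass included ZNF440, at 80.6, 91.8, and 91.9 CPM against 89.1, 97.2, and 90.4 CPM (0.067, adjusted p = 0.826), and ZNF700 (0.53, adjusted p = 0.287). Of 211 other tested ZNF genes on chromosome 19, 0 passed, 71 were higher and 17 lower in all 3 pairs, and the median was 0.18. For osimertinib against vehicle, the median over the 13 genes of the stretch was 0.54. Neighboring genes of this family are similar in sequence and can share reads, so the split of counts between them is uncertain.

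Of the 10 genes that fell, 6 were not copies of mitochondrial rRNA. ANPEP, the cell surface aminopeptidase N, had the largest fall, from 16.4, 29.4, and 26.5 CPM to 2.78, 2.55, and 3.02 CPM (log2 fold change −3.05 ± 0.34, adjusted p = 0.00893). DUSP4, a nuclear phosphatase that inactivates ERK and is induced by it, fell from 21.9, 19.6, and 29.8 CPM to 9.15, 9.26, and 7.44 CPM (−1.45 ± 0.24, adjusted p = 0.0424). Neither gene showed overlap between the groups. DUSP4 was the only one of 21 MAPK feedback and output genes to pass, while 11 were lower and 3 higher in all 3 pairs. The list median was −0.52, with −0.22 in pair a, −0.57 in pair b, and −0.70 in pair c. DUSP5, another nuclear ERK phosphatase, was at 16.2, 24.1, and 24.3 CPM against 13.9, 8.56, and 6.05 CPM (−1.25, adjusted p = 0.147) and passed without library 3a (−1.61, adjusted p = 0.0398). The MAPK inhibitor SPRY2 (−0.52, adjusted p = 0.127), the AP-1 subunit FOSL1 (−0.83, adjusted p = 0.139), and cyclin D1, CCND1 (−0.67, adjusted p = 0.149), were lower in all 3 pairs without passing. The MAPK inhibitor SPRED1 (0.53, adjusted p = 0.285) and the transcription factor ETV1 (0.50, adjusted p = 0.133) were higher in all 3. Members of this list other than DUSP4 were named after their values were seen. Of all 20 tested dual specificity phosphatases, 1 rose (DUSP15) and 1 fell (DUSP4), with a median of −0.049.

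CSPG4, IGFBP4, CLCF1, and MALL had their highest group mean with 1,25(OH)2D3 alone, and with both agents their libraries overlapped those of vehicle-treated H1975–OR cells. With osimertinib alone, CSPG4 (6.085, 4.47, and 5.87 CPM) and CLCF1 (16.7, 22.1, and 19.6 CPM) lay below each library with both agents. IGFBP4 (8.75, 13.8, and 16.0 CPM) and MALL (6.085, 20.7, and 25.5 CPM) were lower with osimertinib alone than with both agents at each letter. CSPG4, a membrane proteoglycan, fell from 27.1, 31.7, and 26.3 CPM to 7.16, 7.40, and 7.91 CPM (log2 fold change −1.92 ± 0.23, adjusted p = 0.0118), against 9.56, 7.76, and 8.22 CPM with vehicle. IGFBP4, which binds insulin-like growth factors, fell from 46.3, 57.5, and 55.5 CPM to 11.5, 14.6, and 17.7 CPM (−1.89 ± 0.19, adjusted p = 0.00522), against 11.8, 22.1, and 24.5 CPM with vehicle. Neither overlapped between 1,25(OH)2D3 and both agents. CLCF1, a cytokine of the ciliary neurotrophic factor family, fell from 62.04, 80.8, and 84.9 CPM to 28.6, 33.6, and 29.99 CPM (−1.29 ± 0.17, adjusted p = 0.0191), against 16.7, 31.5, and 31.9 CPM with vehicle. MALL, a proteolipid of membrane rafts, fell from 25.7, 123, and 179.8 CPM to 9.94, 37.02, and 48.4 CPM (−1.68 ± 0.15, adjusted p = 0.00493), against 10.6, 40.9, and 54.9 CPM with vehicle. Its letter a library was the lowest in each of these groups. CDH1, which encodes the epithelial adhesion protein E-cadherin, lay between the other groups with both agents. It stood at 105, 107, and 150.3 CPM with 1,25(OH)2D3, at 67.4, 43.7, and 39.1 CPM with both agents, and at 9.35, 6.13, and 5.16 CPM with vehicle. The groups did not overlap. Its log2 fold change with osimertinib was −1.34 ± 0.28 (adjusted p = 0.0775) with library 3a and −1.66 ± 0.23 (adjusted p = 0.0234) without it.

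The other 4 genes that fell were MTRNR2L1, MTRNR2L6, MTRNR2L8, and MTRNR2L11, nuclear copies of the mitochondrial 16S rRNA gene that encode humanin-like peptides. The copies resemble each other and the rRNA, so reads cannot be assigned to one of them with certainty. MTRNR2L1 was at 166, 485, and 441 CPM with 1,25(OH)2D3 and at 52.3, 62.5, and 106 CPM with both agents (log2 fold change −2.26 ± 0.27, adjusted p = 0.0105). MTRNR2L8 was at 201, 493, and 468 CPM against 107, 150.2, and 170.2 CPM (−1.38 ± 0.18, adjusted p = 0.0159). The groups did not overlap, and library 3a was the lowest of its group in both. All 7 tested members of the family were lower in all 3 pairs, from −2.57 for MTRNR2L11 to −1.34 for MTRNR2L12, and 6 passed without library 3a. Together the family took between 0.0732% and 0.0963% of the counts with both agents, between 0.11% and 0.342% with 1,25(OH)2D3, between 0.171% and 0.415% with vehicle, and between 0.305% and 0.435% with osimertinib. The share was lower in each library with both agents than in any other H1975–OR library. Mitochondrially encoded mRNA took 1.04%, 0.639%, and 0.424% of the counts in libraries 5a to 5c and 1.54%, 0.697%, and 0.666% in libraries 3a to 3c, lower with both agents in each pair. Its part in the fall of the MTRNR2L genes was not tested.

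**Figure D3:**
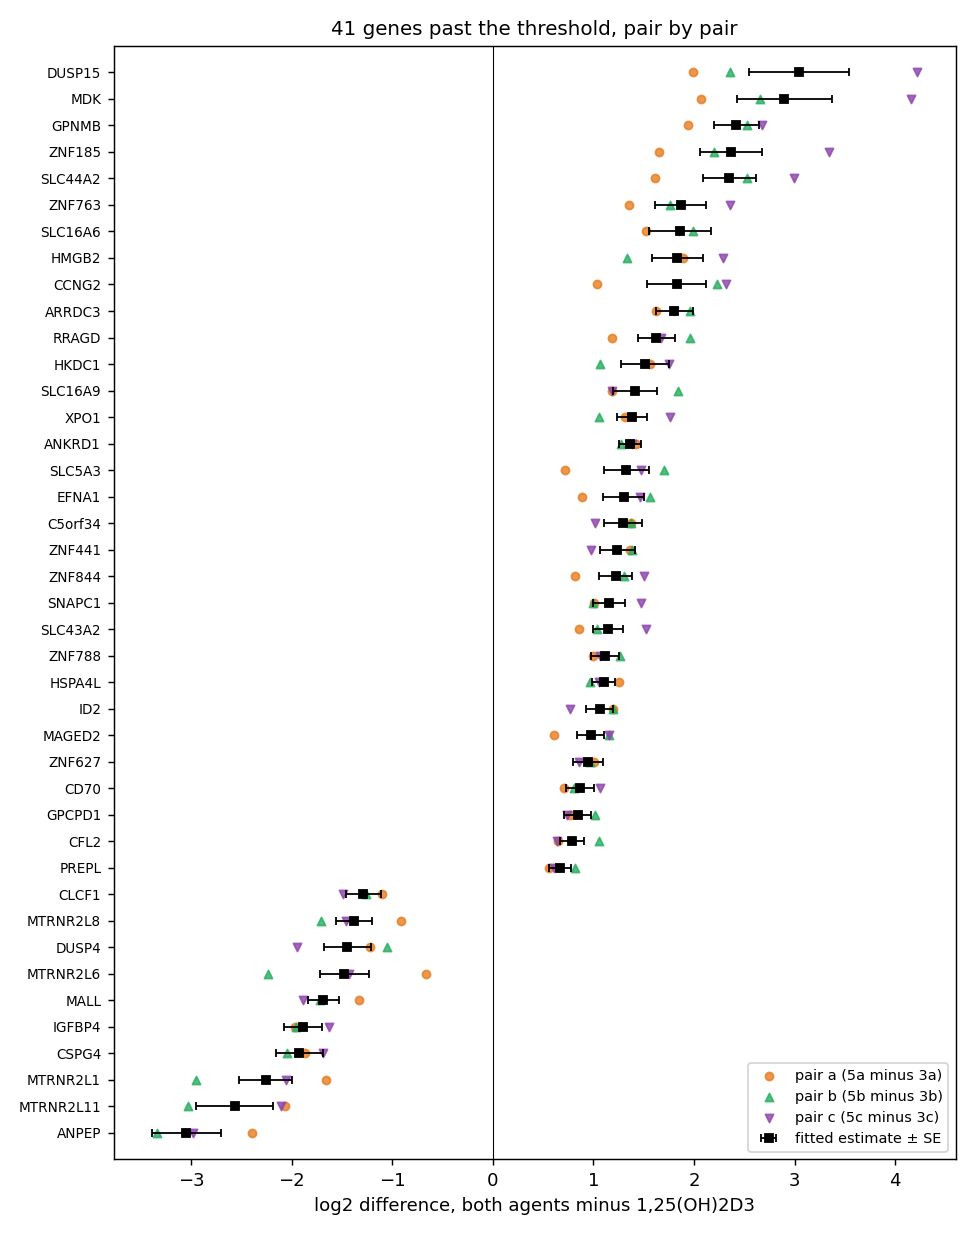
Log2 difference between both agents and 1,25(OH)2D3 within each pair of same-letter libraries (colored symbols) and the fitted estimate with its SE (black squares) for 41 of the 43 genes past the threshold. Each gene shown lies on one side of 0 in all 3 pairs, and DUSP15, MDK, and ZNF185 have their widest difference in pair c.

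Leaving out library 3a added 156 genes to the 41 that passed in both fits, 77 higher and 79 lower. RGS4, a regulator of G protein signaling, was at 6.77, 49.0, and 95.4 CPM with 1,25(OH)2D3 and at 2.19, 0.694, and 5.58 CPM with both agents. Its log2 fold change was −3.95 (adjusted p = 0.0506) with library 3a and −4.54 (adjusted p = 0.0112) without it. Library 3a was the lowest of its group but above each library with both agents. CD274, the immune checkpoint ligand PD-L1, was at 27.7, 49.6, and 73.7 CPM against 19.5, 9.02, and 11.2 CPM, with adjusted p = 0.113 and 0.0342 (log2 fold change without library 3a −2.47). ERRFI1, the EGFR inhibitor MIG6, was at 188, 415, and 468 CPM against 115, 149, and 134 CPM, with adjusted p = 0.0627 and 0.0307 (−1.62). In TM4SF1, a tetraspanin-like membrane protein, library 3a (155 CPM) lay within the range of both agents (141, 150.4, and 178 CPM), whereas libraries 3b and 3c were at 534 and 505 CPM. Among the genes added in the other direction, ELF3, an epithelial ETS factor, was at 18.4, 10.01, and 5.71 CPM against 30.8, 38.6, and 23.7 CPM, with adjusted p = 0.0775 and 0.0112 (2.02). The groups did not overlap even with library 3a. CNN1, the smooth muscle protein calponin 1, was at 27.4, 0.852, and 1.29 CPM against 57.3, 12.7, and 8.37 CPM, with adjusted p = 0.0657 and 0.0149 (3.07). CNN1 was higher in the letter a libraries of both groups. NGFR, a nerve growth factor receptor, was at 1.26, 0.213, and 0.553 CPM against 10.1, 11.3, and 8.60 CPM, with adjusted p = 0.0506 and 0.0255. Libraries 3b and 3c had 3 counts or fewer, so no fold is given. RGS4, CD274, TM4SF1, and NGFR were picked out after their values were seen.

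The same drug without 1,25(OH)2D3, osimertinib against vehicle, called 11 of the 12350 genes (0.0891%) in the same fit, and between 0 and 48 when 1 library was left out. Of these, 8 were among the 43. SLC44A2 (2.54), ZNF185 (2.46), GPNMB (2.28), HKDC1 (1.67), ARRDC3 (1.62), RRAGD (1.59), and SLC43A2 (1.38) were higher and ANPEP (−2.50) was lower, as log2 fold changes. The other 3 of the 11 were CRYAB (2.25 without and 1.74 with 1,25(OH)2D3, adjusted p = 0.0473 and 0.0522), KCTD12 (−1.26 without and −0.93 with 1,25(OH)2D3, adjusted p = 0.0289 and 0.0506), and MGP (−1.04 and −0.53, adjusted p = 0.0489 and 0.150), outside the naming rule. GPNMB stood at 71.99, 78.9, and 56.8 CPM with vehicle and at 279, 416, and 332 CPM with osimertinib alone. The comparisons share no library, only the fit, and the estimate had the same sign in both for 39 of the 43 genes. Its median size without 1,25(OH)2D3 was 0.702 of that with it, a description only, since the 43 were chosen on the latter comparison. The 4 genes of opposite sign were MTRNR2L1 (0.44), MTRNR2L6 (0.48), MTRNR2L8 (0.34), and MTRNR2L11 (0.51). By edgeR's quasi-likelihood test, the difference between the effects of osimertinib with and without 1,25(OH)2D3 passed in 0 of the 12350 genes (0%), with 213 higher and 254 lower at an unadjusted p under 0.05, whereas DESeq2 called 13. On simulated counts, the edgeR test recovered 0 of 200 genes with a log2 difference of 1 and 114 of 200 with 2. Having 0 calls therefore does not show equal effects. The difference was −1.29 for CSPG4 (95% interval from −2.02 to −0.55), −1.30 for IGFBP4 (from −1.90 to −0.71), and −0.87 for CLCF1 (from −1.42 to −0.31). These intervals are not adjusted for the number of genes. CD70 was at 44.3, 22.8, and 31.1 CPM with 1,25(OH)2D3 and at 72.6, 40.3, and 65.8 CPM with both agents (adjusted p = 0.0399), whereas its log2 fold change with osimertinib alone was 0.079 (adjusted p = 0.910). Their difference was 0.79 (95% interval from 0.35 to 1.22). For GPNMB it was 0.14 (from −0.54 to 0.83). CSPG4, IGFBP4, CLCF1, and CD70 were picked for this comparison after their values were seen. They had passed the threshold with 1,25(OH)2D3, and that change is part of the same difference. Their intervals can thus lean away from 0 and are a description only. They were not among the 13 genes called by DESeq2, which included ANKRD1 (edgeR difference 0.76) and SREBF1 (−1.58). The 13 also held MTRNR2L genes and genes with very wide edgeR differences, such as STK11IP (−11.86), ANKHD1-EIF4EBP3 (−11.37), and RBM14-RBM4 (9.05).

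**Figure D4:**
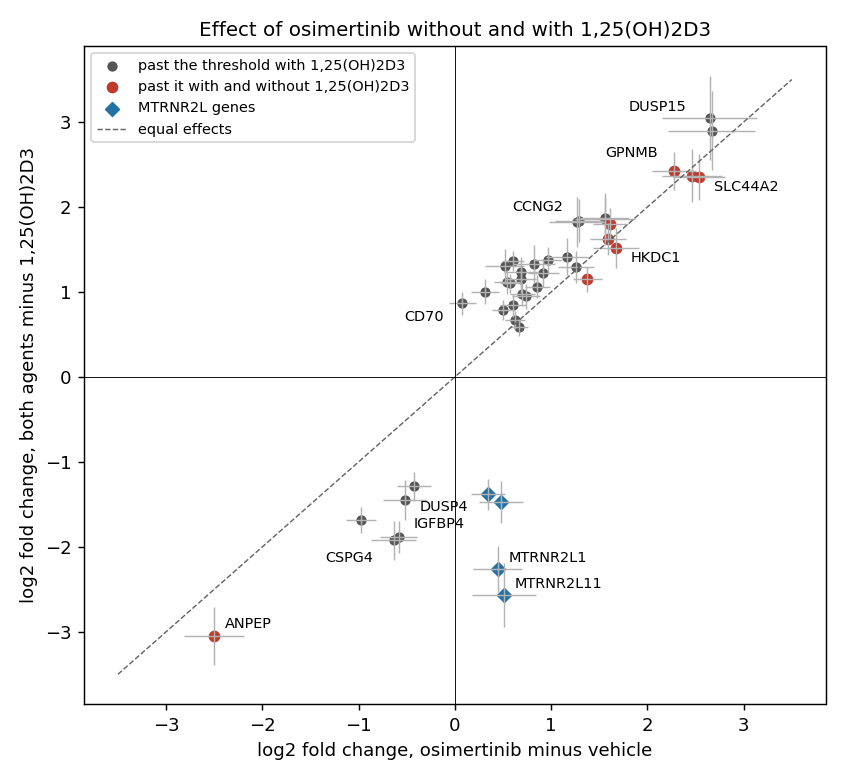
Log2 fold change of the 43 genes with osimertinib in the presence of 1,25(OH)2D3 (vertical axis) and in its absence (horizontal axis), with the SE of each and the line of equal effects. The 8 genes past the threshold in both comparisons (red) lie near the line, and the 4 MTRNR2L genes (blue) are the only ones of the 43 with opposite signs.

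In 23 of the 29 gene lists no member passed the threshold. Of the EGFR family, EGFR itself was at 238, 218, and 202 CPM against 178, 204, and 129 CPM (log2 fold change −0.38 ± 0.20, adjusted p = 0.437), and the receptor ERBB2 at 176, 165, and 126 CPM against 121, 322, and 236 CPM (0.40, adjusted p = 0.627). Both overlapped between the groups, and the median over the 4 receptors was 0.0055. The median over 6 EGFR ligands was −0.35, led among those at 5 CPM or more by BTC (−0.59, adjusted p = 0.604) and HBEGF (−0.12, adjusted p = 0.742). AREG, an EGFR ligand and MAPK target, had 3 counts or fewer in each library with both agents and was at least 6.13-fold lower, with a floor of 3 counts per library. Of 8 EGFR inhibitors and adaptors (median −0.34), ERRFI1 and the adaptor SHC1 (−0.66, adjusted p = 0.0653) passed without library 3a, SHC1 at −0.74, adjusted p = 0.0386. Of 12 immediate early genes (median −0.43), 7 were lower and 1 was higher in all 3 pairs. KLF6, a zinc finger transcription factor, was at 242, 189, and 199 CPM against 146, 113, and 118 CPM (−0.74, adjusted p = 0.0538), and the groups did not overlap. DUSP1, a MAPK phosphatase named after its values were seen, was at 80.6, 97.6, and 107 CPM against 95.4, 158, and 211 CPM (0.64, adjusted p = 0.113) and was the only member of the list to pass without library 3a (0.82, adjusted p = 0.0313). MYC, a transcription factor that drives growth, was at 885, 437, and 548 CPM against 532, 255, and 314 CPM (−0.77, adjusted p = 0.0676), lower in each pair. EGR1, an ERK-induced transcription factor, was at least 5.25-fold lower by the same floor. Of 22 nucleolar and ribosome biogenesis genes (median −0.25), 20 had an estimate below 0, MYC among them, but the median was 0.071 in pair a against −0.78 in pair b. ODC1, the polyamine synthesis enzyme and a MYC target, was at 0.62, adjusted p = 0.0795.

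Of 12 inflammatory cytokines and chemokines (median −0.70), 7 were lower and 1 was higher in all 3 pairs. The prostaglandin synthase PTGS2 was at 12.4, 104, and 143 CPM against 6.36, 31.9, and 26.5 CPM (log2 fold change −1.72, adjusted p = 0.0776) and the chemokine CXCL8 at 12.3, 25.1, and 45.1 CPM against 7.95, 5.55, and 3.72 CPM (−1.99, adjusted p = 0.162). Of 16 vitamin D receptor targets and partners (median −0.46), 7 were lower and 2 higher in all 3 pairs. CYP24A1, the catabolic enzyme of 1,25(OH)2D3, was at 1012, 862, and 1458 CPM against 1056, 666, and 902 CPM (−0.36, adjusted p = 0.474), and at 8.54, 3.27, and 4.78 CPM with vehicle. It was thus far above vehicle in each library of both groups, and these overlapped. Without library 3a the CYP24A1 estimate was −0.61 (adjusted p = 0.0700). VDR itself (−0.73, adjusted p = 0.145) and its partner RXRA (−2.06, adjusted p = 0.141) were lower in all 3 pairs without passing. Of 24 ATF4 and unfolded protein response genes (median 0.15), 11 were higher and 4 lower in all 3 pairs. The stress factor DDIT3 was at 10.7, 10.2, and 15.1 CPM against 29.6, 28.2, and 25.6 CPM (1.21 ± 0.21, adjusted p = 0.0506), with no overlap, and the serine synthesis enzyme PSAT1 passed without library 3a (0.72, adjusted p = 0.0386). In a list of 9 aryl hydrocarbon receptor targets and aldehyde dehydrogenases (median 0.32), the ADP-ribosyltransferase TIPARP was at 0.72, adjusted p = 0.0657 and the monooxygenase CYP1A1 at 1.56, adjusted p = 0.171, and TIPARP passed without library 3a (0.78, adjusted p = 0.0473).

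Epithelial and mesenchymal genes showed no common direction. The median log2 fold change was 0.033 over 23 epithelial genes and −0.17 over 25 mesenchymal genes. KRT19, an epithelial keratin, was at 346, 489, and 609 CPM against 198, 96.5, and 152 CPM (−1.68, adjusted p = 0.0736), opposite in sign to ELF3. COL1A2, a fibrillar collagen chain, was at 8.98, 3.20, and 4.05 CPM against 0.994, 0, and 0 CPM (adjusted p = 0.0775) and passed without library 3a (adjusted p = 0.0497), opposite in sign to CNN1. CLDN4, a tight junction claudin, was at 91.5, 105, and 78.3 CPM against 100.2, 86.5, and 105 CPM (0.11, adjusted p = 0.841). The matrix protease MMP2 was at 1.89, 2.13, and 2.95 CPM against 0, 1.16, and 0.465 CPM (−2.50, adjusted p = 0.251). MMP2 had 5 counts or fewer in each library with both agents, so the size of its fold is uncertain. Of the bypass receptor kinases (14 tested, median 0.042), AXL was at −0.22, adjusted p = 0.542, and FGFR1 at −0.73, adjusted p = 0.167. Of their ligands (8 tested, median 0.36), PROS1 was at 0.56, adjusted p = 0.0965, and PDGFA at −0.86, adjusted p = 0.0735.

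The remaining lists, given with their medians, were 31 cholesterol and fatty acid synthesis genes (−0.0024), 19 NRF2 targets (−0.14), 25 glycolysis and hypoxia genes (−0.0078), 30 interferon-stimulated and MHC class I genes (0.20), 15 CDK inhibitors, RB1, and p53 axis genes (0.19), 13 BCL2 family genes (−0.036), and 6 lung and airway identity genes (0.086). The lipid synthesis regulator SREBF1 (−1.16, adjusted p = 0.0774) and the sterol desaturase SC5D (0.79, adjusted p = 0.149) led the first, and the second held the cystine carrier SLC7A11 (0.88, adjusted p = 0.0836). The phosphofructokinase PFKP was at 0.40, adjusted p = 0.122, and the vasodilator peptide gene ADM at 1.74, adjusted p = 0.0823. IFIT3 was at 0.52, adjusted p = 0.126, and IFITM3 at −0.83, adjusted p = 0.147, both interferon-induced antiviral genes. The stress cytokine GDF15 was at 1.16, adjusted p = 0.255, and the CDK inhibitor CDKN1C at −0.69, adjusted p = 0.127. Of the BCL2 family, BOK, a pore-forming member, was at −0.52, adjusted p = 0.167, and the survival gene BCL2L1 at −0.38, adjusted p = 0.242. Of the identity genes, MUC1 was at −1.56, adjusted p = 0.380, and NKX2-1 at 0.31, adjusted p = 0.421. Of 4 tested markers of other cell types (median −0.65), the macrophage marker CD68 was at 7.09, 16.2, and 27.6 CPM against 20.7, 10.6, and 4.65 CPM (−0.57, adjusted p = 0.732), with no common sign in the pairs. The part of such markers in the differences above was not tested.

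**Figure D5:**
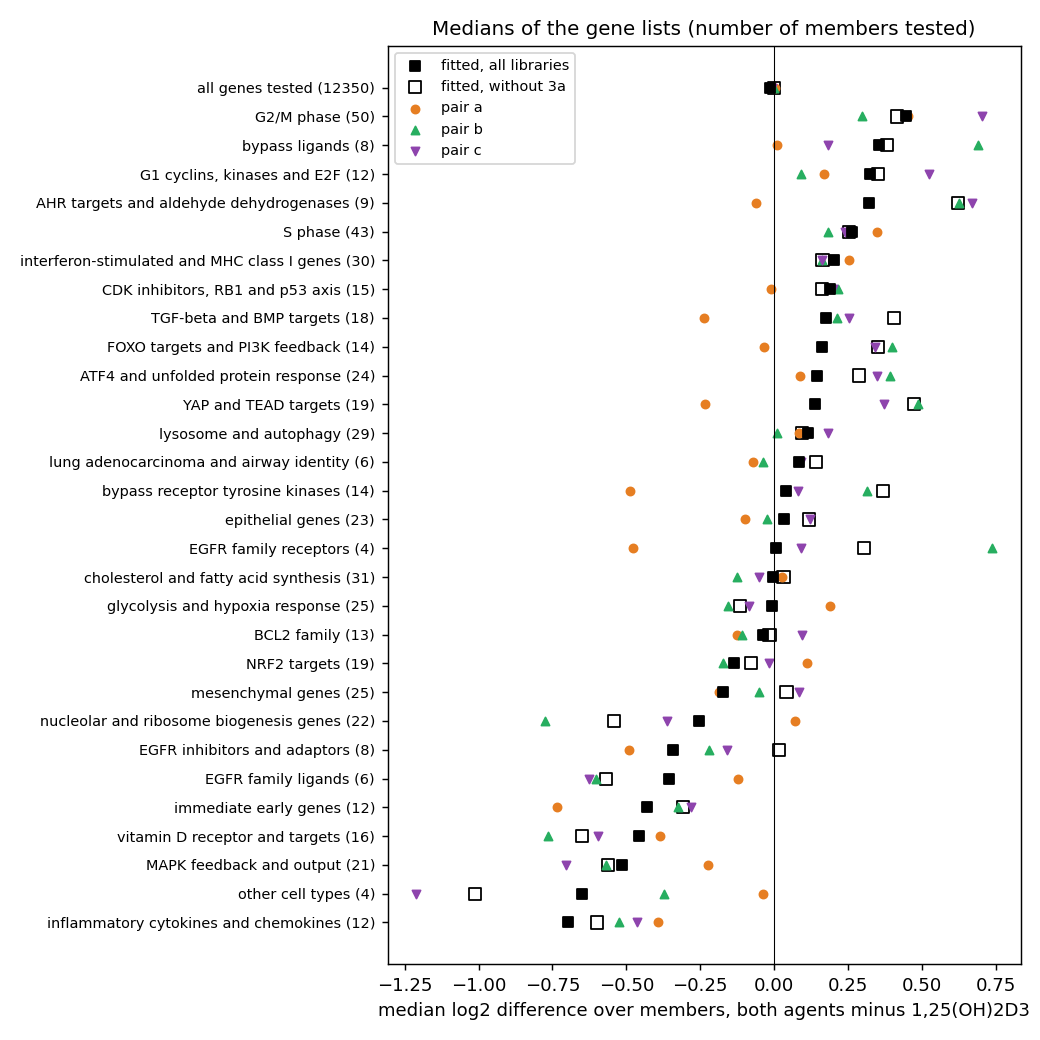
Median log2 difference (both agents minus 1,25(OH)2D3) over the tested members of each of 29 gene lists and over all genes tested, fitted with all libraries (filled squares), fitted without library 3a (open squares), and within each pair (colored symbols). The G2/M median lies above 0 in all 3 pairs (0.30 to 0.70) and the MAPK median below 0 (−0.70 to −0.22), whereas the YAP and TEAD median has a different sign in pair a than in pairs b and c.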

How the data were processed

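Total RNA libraries (stranded TruSeq kit, rRNA depleted with Ribo-Zero Gold) were sequenced paired-end on a NextSeq500. The authors quantified transcripts on hg38 with Kallisto and summed them to genes with tximport, and the deposited values are estimated counts for 19612 gene symbols, without scaling to library size or gene length. The submitters' processing notes name CASAVA 1.8.2, STAR 2.5.2b, and kallisto 0.43.0. The tximport settings and the transcript annotation are not given in the sources used here. Kallisto shares reads among similar transcripts, so counts of near-identical genes are uncertain.

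Here the counts were rounded and fitted with edgeR 4.0.16 in R 4.3.3 (filterByExpr with a minimum count of 10 and minimum total of 15, TMM, robust quasi-likelihood test, Benjamini-Hochberg threshold 0.05). One fit held the 12 H1975–OR libraries with a term for the group and one for the replicate letter. CPM use TMM-scaled totals, folds against 0 use a floor of 3 counts (0.489 to 0.685 CPM across the H1975–OR libraries, counting error only), and intervals are at 95%. Deviations from the group means correlated at 0.266, 0.0113, and 0.221 for the a, b, and c pairs. Between any 2 of the H1975–OR groups, same-letter correlations ran from 0.157 to 0.395 for a, from −0.00839 to 0.206 for b, and from 0.141 to 0.221 for c. The closest library to each of 2a, 3a, 4a, and 5a was another letter a library. Letter a libraries were thus alike across groups, whereas a pairing of 3b with 5b was not shown. The block was kept because the comparison was defined with it. P-values rest on a residual spread estimated from the 12 H1975–OR libraries and moderated across genes. An exact unpaired permutation test of 3 against 3 libraries cannot go below 0.10 and was not used.

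Up to 12 rises and 12 falls by size were named, at an adjusted p under 0.05, 10 CPM or more in one group, and one sign in all pairs, together with the members past the threshold of 29 lists, otherwise the 2 with the smallest p at 5 CPM or more, and EGFR, CYP24A1, VDR, CDH1, CLDN4, and MMP2. The comparison, genes, and lists were chosen with earlier results of these data known. S and G2/M lists came from Seurat 5.3.0 and the rest from general knowledge. Gene positions came from GENCODE release 44, or from RefSeq where GENCODE held no single match for a zinc finger symbol, as for ZNF788. Alternatives were DESeq2 1.42.0, RLE factors, other filters, no block, all 15 libraries, the compared groups alone, and each library left out. Some genes are not reported here. The scripts were tested on simulated data.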

Additional observations from a re-analysis of the deposited data

Results flagged for a closer look

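The effect of osimertinib on 4 MTRNR2L genes had opposite signs with and without 1,25(OH)2D3 in every same-letter pair of libraries. Without 1,25(OH)2D3 their rises were between 0.34 and 0.51 and did not pass (edgeR adjusted p from 0.576 to 0.696). The 4 genes had passed the threshold with 1,25(OH)2D3, and that change is part of the same difference. The difference between the 2 effects (with minus without 1,25(OH)2D3, log2) was −2.70 ± 0.36 (SE) for MTRNR2L1, −3.08 ± 0.50 for MTRNR2L11, −1.95 ± 0.34 for MTRNR2L6, and −1.73 ± 0.25 for MTRNR2L8. The test of the difference did not pass the threshold by edgeR's quasi-likelihood test (Benjamini-Hochberg adjusted p = 0.308, 0.425, 0.511, and 0.308). With DESeq2 it did, with adjusted p = 6.1e-10, 0.000289, 0.000269, and 1.97e-07 in the same order.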

How the results depend on the processing

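The 43 genes changed by adding osimertinib kept their direction wherever tested in the 20 alternatives. In 503 of 857 gene and alternative pairs they also kept their side of the threshold. They were chosen on these same values and had one sign in all 3 pairs, so the kept direction is a description only. The count was 44 with RLE factors, 50 without a filter, and 59 with all 15 libraries. It was 85 with at least 10 counts in every library, 406 with DESeq2, and 0 with the compared groups alone. Leaving out 1 library gave between 6 (5b) and 197 (3a) genes, with 112 without 2a, 24 without 4b, 26 without 4c, 12 without 3b, and 8 without 3c or 5c. Without the replicate block 11 genes passed, and without the block and library 3a 25 passed. Of the 43 genes, 11 and 12 were among them. Same-letter correlations in the compared groups were 0.266, 0.0113, and 0.221 for a, b, and c, so a pairing of 3b with 5b is not shown.

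For osimertinib against vehicle (11 genes), 6 genes passed without the replicate block, with or without library 3a, 19 with at least 10 counts in every library, 170 with DESeq2, and 0 with the compared groups alone. Leaving out 1 library gave between 0 (2b, 2c, 4b, or 4c) and 48 (3a) genes, with 1 without 4a, 4 without 2a, and 6 without 3b or 5b. For the difference between the osimertinib effects (0 genes), DESeq2 called 13, and leaving out 1 library gave between 0 and 1, the latter without 3a or 3c. The cause of these differences was not tested.

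Among named genes that did not pass, AXL was at 0.012 without the block and library 3a, CD68 at 0.063 without 3c and at 0.025 without 5c, and CLDN4 at −0.0051 without 5c, each opposite in sign to its estimate from all libraries. With 1 library left out, CD68 ranged from −1.22 to 0.063 and CLDN4 from −0.0051 to 0.31. AREG and EGR1, at 3 counts or fewer in each library with both agents, allow only a lower bound on their fold. The difference between the osimertinib effects could not be fitted with the compared groups alone.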
